A study of Homo sapiens with 8 samples.

Results

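The mRNAs described here encode the machinery that shows peptides on MHC class I molecules. The 8 genes were chosen by symbol and were HLA-B, HLA-C, HLA-E, B2M, TAP1, TAP2, TAPBP, and NLRC5, out of 57756 genes listed. All 8 were found, and all 8 passed the minimum on counts. TAP2 was the only member listed in more than 1 row, and its row with the largest mean count was used. An antibody against RPS6 (ribosomal protein S6, part of the small subunit of the ribosome) was used for RNA immunoprecipitation (RIP), and the recovered RNA was sequenced beside the input RNA of the same cells. The series had 8 libraries, 1 RIP and 1 input for each of 4 human cancer cell lines, with no treatment named for any of them. The lines were Hep3B (hepatocellular carcinoma), HCT116 (colon), DU145 (prostate), and SW1990 (pancreas). The titles and the paper give the liver line as Hep3B, while other label fields of that pair give Huh7. It is called Hep3B here.

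The RIP libraries were compared with the inputs over the 4 lines, each of which paired its own libraries. There was no library from a control antibody among those analysed here, so RNA that binds beads or any antibody cannot be told apart from RNA bound by RPS6. There was also 1 library per line and kind, so a difference between lines had no replicate check. The inputs held 35796194 to 54209625 fragments and the RIP libraries 34630338 to 42610081. The 6 liver markers summed to 6072 FPKM in the Hep3B input and to at most 1.32 FPKM in the other inputs. FPKM, fragments per kilobase of transcript per 1000000 fragments, is a level corrected for length and depth. Markers of colon, prostate, and pancreatic duct did not single out the lines with those labels. The colon markers summed to 152 FPKM in Hep3B, 95.2 in SW1990, and 6.63 in HCT116. The prostate markers summed to 9.49 FPKM in DU145, 8.36 in HCT116, and 7.54 in SW1990, with KLK3 listed at 0 in DU145. The pancreatic duct markers summed to 617 FPKM in HCT116 and 299 in SW1990. Leukocytes express class I genes strongly. Their markers PTPRC and CD3E did not exceed 0.0402 FPKM in any of the 8 libraries. The 5 leukocyte markers summed to 43.2 FPKM in the Hep3B input and to 0.338 to 8.80 FPKM in the other inputs, and LYZ and CD74 made up most of the Hep3B sum.

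Nearly all nucleated cells carry MHC class I molecules. Each is a membrane-bound heavy chain paired with the small soluble chain β2-microglobulin and holds a short peptide cut from the proteins of the cell. The transporter TAP pumps peptides into the endoplasmic reticulum, and tapasin holds the empty heavy chain next to the transporter until a peptide fits. Cytotoxic T cells and natural killer cells read the result at the cell surface, and tumours often lower this pathway.

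HLA-B, HLA-C, and HLA-E encode heavy chains, and B2M encodes β2-microglobulin. TAP1 and TAP2 encode the subunits of the transporter, TAPBP encodes tapasin, and NLRC5 is a transactivator of class I genes. In hg19 the files place HLA-B (ENSG00000234745) at chr6:31321648-31325414, HLA-C (ENSG00000204525) at chr6:31236525-31239907, and HLA-E (ENSG00000204592) at chr6:30457243-30461982. TAP1 (ENSG00000168394) lies at chr6:32808493-32827362, TAP2 (ENSG00000204267) at chr6:32780539-32806599, and TAPBP (ENSG00000231925) at chr6:33267470-33282164. These 6 genes thus lie on chromosome 6. B2M (ENSG00000166710) lies at chr15:45003674-45011075 and NLRC5 (ENSG00000140853) at chr16:57023396-57117443. The files give a shared locus to TAP1 and 3 other genes, among them PSMB8 and PSMB9, and HLA-B, TAP2, and NLRC5 also share theirs. Fragments of overlapping or antisense genes may have been split between rows. HLA-B and HLA-C are similar in sequence and highly variable, so the assignment of fragments between them and to other class I genes is uncertain.

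The promoters of these genes are shown because the genes are known to share control elements. A link between these elements and the RIP to input differences was not tested. RefSeq sequences were matched for 6 of the 8 members, and each line gives the stretch of the 250 bases before the first listed start site that holds the matches. Capitals mark matches on either strand to a direct repeat of GAAA with a spacer of 2 bases (a core of interferon response elements), CCAAT (bound by NF-Y), to TGACG (part of the site of CREB-family factors), or to the NF-κB consensus. Where capitals run on, matches overlap or adjoin.
HLA-B, GRCh38.p14 chr6:31357226-31357361, minus strand: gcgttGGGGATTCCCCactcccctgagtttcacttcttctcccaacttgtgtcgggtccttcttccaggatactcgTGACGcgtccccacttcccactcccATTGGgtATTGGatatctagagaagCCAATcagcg
HLA-C, GRCh38.p14 chr6:31272139-31272289, minus strand: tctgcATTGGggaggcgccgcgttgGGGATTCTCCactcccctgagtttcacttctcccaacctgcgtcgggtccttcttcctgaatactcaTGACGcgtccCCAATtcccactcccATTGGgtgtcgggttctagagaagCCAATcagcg
B2M, GRCh38.p14 chr15:44711368-44711477, plus strand: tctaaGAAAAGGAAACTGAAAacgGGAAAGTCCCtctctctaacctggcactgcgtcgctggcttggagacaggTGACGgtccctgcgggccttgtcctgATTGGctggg
TAP1, GRCh38.p14 chr6:32853762-32853954, minus strand: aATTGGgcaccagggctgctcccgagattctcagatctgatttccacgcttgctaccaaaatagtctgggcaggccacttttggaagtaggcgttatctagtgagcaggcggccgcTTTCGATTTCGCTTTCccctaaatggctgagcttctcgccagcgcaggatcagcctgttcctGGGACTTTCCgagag
TAP2, GRCh38.p14 chr6:32838765-32838802, minus strand: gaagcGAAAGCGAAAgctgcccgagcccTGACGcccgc
TAPBP, GRCh38.p14 chr6:33314079-33314139, minus strand: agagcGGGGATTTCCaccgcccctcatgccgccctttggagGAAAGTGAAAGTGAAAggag
HLA-B, HLA-C, and B2M each held a match to CCAAT, one to TGACG, and an NF-κB match. The CCAAT match nearest to the start site lay 56 to 52 bases before it in both HLA-B and HLA-C. The GAAA repeat was found in 4 of the 6 promoters, those of B2M, TAP1, TAP2, and TAPBP, against 3.02% of 35116 RefSeq promoters of the same length. CCAAT was found in 4 of the 6 and in 32.0% of all promoters, TGACG in 4 of the 6 and in 21.2%, and the NF-κB consensus in 5 of the 6 and in 9.96%. A match is a run of letters and does not show that a factor binds there.

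The question put to the RIP and input pairs was which mRNAs had higher or lower relative levels in the RIP library than in the input. Of the 8 members, 7 were higher in the RIP libraries and 1, B2M, was lower (edgeR quasi-likelihood test with the cell line as a block, adjusted p under 0.05). Over all 19910 genes tested, 26.5% were called higher and 24.9% lower. The median log2 fold change, RIP over input, was 1.35 for the 8 members and -0.05 for all genes tested. The members were chosen with earlier results of these data known, so this contrast is not a test of them as a set. By FPKM, the 7 members were higher in 4 of 4 lines and B2M was lower in 4 of 4. An exact two-sided sign-flip test over the 4 lines gave p = 0.125 for each member, the smallest it can give. The adjusted p-values measure the spread between the pairs of 4 lines, with 1 pair for each line.

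**Figure D1:**
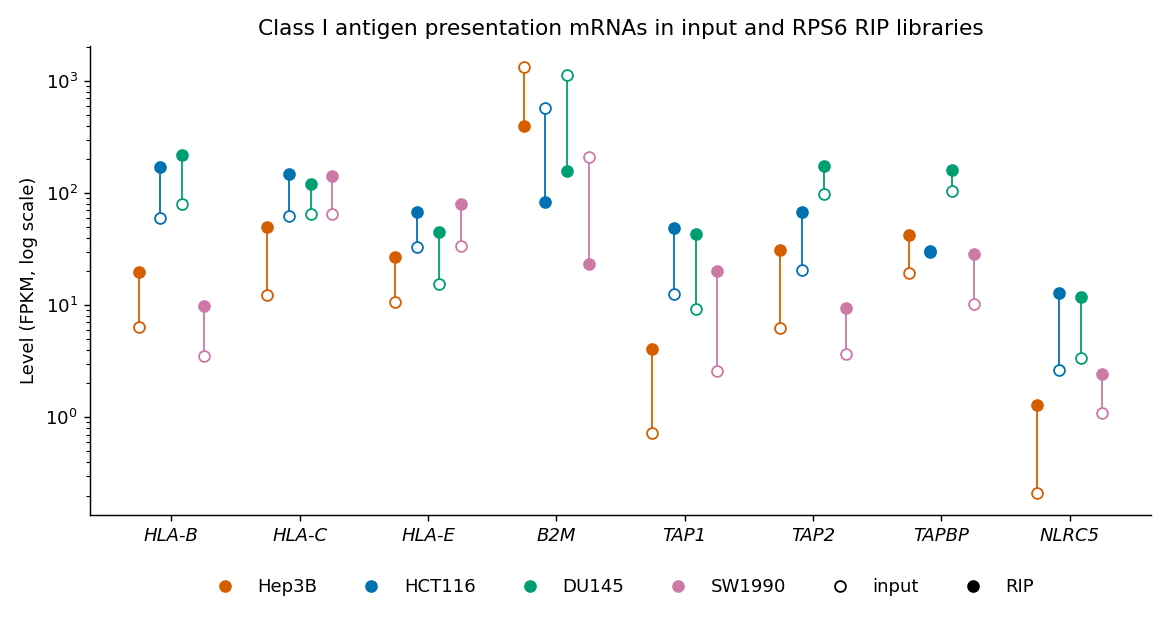
Level of each member in FPKM (vertical axis, log scale) in the input (open circles) and RPS6 RIP (filled circles) library of each cell line, with a line joining each pair. B2M fell in every pair, from 210 to 23.4 FPKM in SW1990 for example, and the other members lay above their inputs, by least for TAPBP in HCT116.

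The heavy chain mRNAs were all more abundant in the RIP libraries. HLA-B stood at 6.44 FPKM in the Hep3B input, 60.2 in HCT116, 79.2 in DU145, and 3.55 in SW1990. Its RIP levels were 19.9, 172, 221, and 9.90 FPKM in the same order of lines. Each RIP library lay above its own input, though the ranges of the RIP and input groups overlapped because the lines differed more than the pairs did. The edgeR log2 fold change of HLA-B was 1.61 (SE 0.18, adjusted p = 4.79e-05), a 3.06-fold difference. The 4 lines were close together, with FPKM ratios of RIP to input from 2.79 to 3.10.

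HLA-C, the heavy chain most recognised by killer cell receptors, stood at 12.3 FPKM in the Hep3B input, 62.5 in HCT116, 64.8 in DU145, and 64.4 in SW1990. In the RIP libraries it stood at 49.7, 147, 121, and 142 FPKM. Hep3B had the lowest level in both kinds of library and the largest ratio, 4.04, against 1.87 to 2.35 in the other lines. The log2 fold change of HLA-C was 1.42 (SE 0.21, edgeR adjusted p = 0.000250).

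HLA-E presents signal peptides of other class I chains to an inhibitory receptor of natural killer cells. Its input levels were 10.6 FPKM for Hep3B, 32.9 for HCT116, 15.5 for DU145, and 33.5 for SW1990. Its RIP levels were 27.1, 67.8, 44.5, and 79.1 FPKM. All 4 pairs rose by 2.06- to 2.86-fold in FPKM, and the log2 fold change was 1.20 (SE 0.18, edgeR adjusted p = 0.000286).

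B2M went the opposite way. It was the most abundant member in every input, at 1326 FPKM for Hep3B, 576 for HCT116, 1125 for DU145, and 210 for SW1990. In the RIP libraries it stood at 398, 82.7, 158, and 23.4 FPKM. In HCT116, DU145, and SW1990, every RIP level was below every input level of the 4 lines, and only the Hep3B RIP level passed the SW1990 input. The edgeR log2 fold change of B2M was -2.73 (SE 0.25, adjusted p = 1.91e-05), 6.61-fold lower in RIP. Hep3B showed the smallest fall, 3.33-fold in FPKM, and SW1990 the largest, 8.95-fold. Of all 19910 genes tested, B2M had the 816th lowest fold change.

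The chains that pair in the class I molecule were thus present in different proportions in the input and the RIP libraries. The summed FPKM of HLA-B, HLA-C, and HLA-E served as the heavy chain level. In the inputs, B2M exceeded that sum 45.2-fold for Hep3B, 3.70-fold for HCT116, 7.05-fold for DU145, and 2.07-fold for SW1990. In the RIP libraries the ratio of B2M to heavy chains was 4.11, 0.214, 0.410, and 0.101 in the same order. B2M was in excess in all 4 inputs and in only 1 RIP library, that of Hep3B. The ratio fell by a factor of 20.4 in SW1990, by 17.3 and 17.2 in HCT116 and DU145, and by 11.0 in Hep3B.

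Both transporter mRNAs were more abundant in the RIP libraries. TAP1 stood at 0.727 FPKM in the Hep3B input, 12.7 in HCT116, 9.24 in DU145, and 2.61 in SW1990. Its RIP levels were 4.02, 49.0, 43.0, and 20.2 FPKM. The smallest ratio was 3.87, in HCT116, and the largest 7.73, in SW1990. The log2 fold change of TAP1 was 2.31 (SE 0.22, edgeR adjusted p = 2.19e-05), the 720th highest of the 19910 genes.

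TAP2 stood at 6.29 FPKM in the Hep3B input, 20.7 in HCT116, 98.2 in DU145, and 3.67 in SW1990. In the RIP libraries it stood at 30.8, 68.4, 173, and 9.39 FPKM. The gain was smallest in DU145, where the input was highest, at 1.76-fold, and largest in Hep3B, at 4.89-fold. By share of fragments, the Hep3B ratio was 1.87 and SW1990 had the largest, 2.48. The counts behind 1 FPKM of TAP2 in Hep3B were 91.0 in the input and 40.0 in RIP. The log2 fold change of TAP2 was 1.27 (SE 0.19, edgeR adjusted p = 0.000265). By FPKM, TAP2 exceeded TAP1 in all 4 inputs, by 1.41-fold in SW1990 to 10.6-fold in DU145. In the RIP library of SW1990 the order was turned on that scale, with TAP2 at 0.466 of TAP1. By fragments, which are not corrected for length, TAP1 led in both SW1990 libraries. It held 263 against 157 for TAP2 in the input and 1641 against 405 in RIP. The counts behind 1 FPKM of TAP2 ran from 41.7 in the SW1990 input to 91.0 in the Hep3B input, so the turn of order depends on the length correction.

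Tapasin mRNA changed least. TAPBP stood at 19.3 FPKM in the Hep3B input, 30.1 in HCT116, 104 in DU145, and 10.3 in SW1990, and at 42.2, 30.6, 161, and 28.4 FPKM in the RIP libraries. The HCT116 pair was nearly level, and by share of fragments it was lower in RIP, at 92.2 against 96.6 per 1000000 fragments, so that 3 of 4 lines were higher on that scale. The log2 fold change of TAPBP was 0.89 (SE 0.21, edgeR adjusted p = 0.00518). With library totals alone in place of TMM factors it was 0.55, with an adjusted p of 0.0763 that no longer passed the threshold.

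NLRC5, the transactivator, was the scarcest member in every input and had the highest fold change of the members in the edgeR fit. Its input held 5 fragments for Hep3B, 498 for HCT116, 426 for DU145, and 59 for SW1990, which were 0.209, 2.66, 3.40, and 1.10 FPKM. Its RIP libraries held 17, 2151, 1369, and 314 fragments, or 1.28, 12.8, 11.9, and 2.42 FPKM. Every RIP level was above its own input. In Hep3B, the 95% Wilson intervals of the fragment share overlapped, at 0.0597 to 0.327 per 1000000 in the input and 0.307 to 0.786 in RIP, so the Hep3B difference was at the edge of what this depth could show. These intervals cover counting error only. The log2 fold change of NLRC5 was 2.60 (SE 0.24, edgeR adjusted p = 1.74e-05), the 357th highest of all genes tested. On the log2(FPKM + 1) scale, which understates changes of low genes, the mean ratio was 1.27 ± 0.56 (SD, n = 4), below that of TAP1. With FPKM + 0.1 it was 1.81, still below the 2.34 of TAP1, so its first place among the members held in the fit on counts. The counts behind 1 FPKM of NLRC5 differed 5.60-fold between the inputs and 11.4-fold between the RIP libraries. In SW1990 they were 52.4 in the input and 154 in RIP. On the log2(FPKM + 1) scale, the values of the other members ran from 0.78 ± 0.59 for TAPBP to 2.02 ± 0.43 for TAP1, with B2M at -2.61 ± 0.60 (SD, n = 4 lines).

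**Figure D2:**
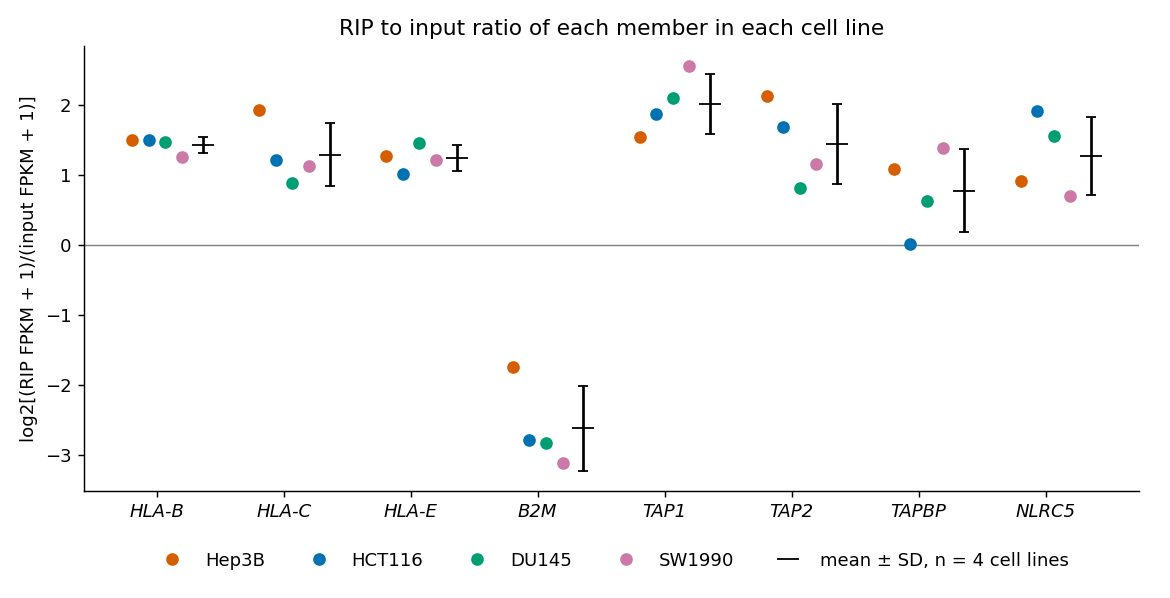
The log2 ratio of RIP to input, each as FPKM + 1, for each member (vertical axis) with 1 point per cell line and the mean ± SD of 4 lines in black. HLA-B showed the smallest spread between lines (SD 0.11), TAPBP in HCT116 lay at 0.02, and B2M was the only member below 0, between -1.73 and -3.11.

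For every member but B2M, the range between the inputs of the 4 lines was wider than the largest RIP to input ratio in any line. In these bulk libraries, fewer cells with an mRNA and less of it per cell cannot be told apart. DU145 had the highest input FPKM of HLA-B, HLA-C, TAP2, TAPBP, and NLRC5. For HLA-B, TAP2, and TAPBP the order of the inputs was the same, DU145, HCT116, Hep3B, and SW1990 from high to low. By FPKM, the highest input exceeded the lowest 22.3-fold for HLA-B, 26.8-fold for TAP2, and 10.1-fold for TAPBP. By share of fragments, the range was 9.50-fold for HLA-B, 27.9-fold for TAP2, and 10.1-fold for TAPBP. For HLA-B, the shares of fragments in Hep3B and SW1990 had overlapping 95% Wilson intervals, 7.41 to 9.30 and 6.21 to 7.92 per 1000000, and their order is not set beyond counting error.

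TAP1 followed another order, HCT116, DU145, SW1990, and Hep3B, with a 17.4-fold range. HLA-E ran from SW1990 and HCT116 through DU145 to Hep3B, with a 3.16-fold range. HLA-C was similar in DU145, SW1990, and HCT116, and the highest of them exceeded Hep3B 5.26-fold. By FPKM, B2M ran in the reverse order of HLA-E, with Hep3B highest and SW1990 lowest over a 6.32-fold range. SW1990 was also lowest for HLA-B, TAP2, and TAPBP. Hep3B thus had the most B2M mRNA and the least HLA-C, HLA-E, TAP1, and NLRC5 among the inputs. Levels of Hep3B and HCT116 came from a separate table than those of DU145 and SW1990, while each RIP and input pair lay within 1 table.

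The order of lines in the RIP libraries was that of the inputs for 5 of the 8 members by FPKM and for 6 by share of fragments. It changed by FPKM for HLA-C, for TAPBP, where Hep3B passed HCT116, and for NLRC5, where HCT116 passed DU145. By share of fragments, HCT116 was already ahead of DU145 in the NLRC5 input, at 10.9 against 7.86 per 1000000, so this change of order, and the lead of DU145 for NLRC5, held by FPKM only. The scale also mattered for HLA-C and HLA-E. For HLA-E, the 2 highest inputs, SW1990 and HCT116, changed places. For HLA-C, the input level per 1000000 fragments was 130 in SW1990, 126 in HCT116, 52.1 in DU145, and 11.6 in Hep3B. The HLA-C range became 11.2-fold, and the lead of DU145 for HLA-C held by FPKM only. The counts behind 1 FPKM differed 2.50-fold between the inputs for HLA-C, 2.47-fold for HLA-B, and 2.18-fold for TAP2, against at most 1.21-fold for HLA-E, B2M, TAP1, and TAPBP. Which transcript length the authors' software used for each line is not given in the sources used here.

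Profiles of log2 levels over the 8 libraries were compared among members, with 4 lines and the RIP shift shared by all points. TAP1 and NLRC5 were most like each other (Pearson's r = 0.94), as were HLA-B and TAP2 (r = 0.94) and HLA-C and HLA-E (r = 0.89). B2M was least like HLA-E (r = -0.94), and its most similar member was TAPBP (r = 0.09). Of 16892 other genes, those closest to the mean profile of the members included TBXA2R, ETV6, ARHGAP22, and ARHGAP19, with r from 0.973 to 0.979.

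RIP to input differences followed the estimated counts per FPKM across all genes. The estimated counts per FPKM, which rise with the length of a transcript, were used to sort the 19910 genes into 10 equal bins, a step added after the values were seen. The median log2 fold change was -0.76 in the bin of lowest counts per FPKM and 0.88 in the highest. In the lowest bin 9.29% of genes were called higher and 27.9% lower, and in the highest bin 49.2% and 10.9%. B2M, with 16.7 counts per FPKM, lay in the lowest bin, where 261 of 1991 genes had a lower fold change than B2M. HLA-B lay in the third bin, where 1899 genes had a lower fold change. HLA-C and TAP2 lay in the fourth, with 1796 and 1752 genes below them. In the eighth bin, 1951 genes lay below NLRC5, 1892 below TAP1, 1488 below HLA-E, and 1344 below TAPBP. NLRC5 was placed by its median of 111 counts per FPKM, but its libraries ran from 16.1 to 183, so its bin is uncertain. All 7 members with higher RIP levels were above the median of their bin and B2M was below it. The part of length in the members' differences was not tested.

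**Figure D3:**
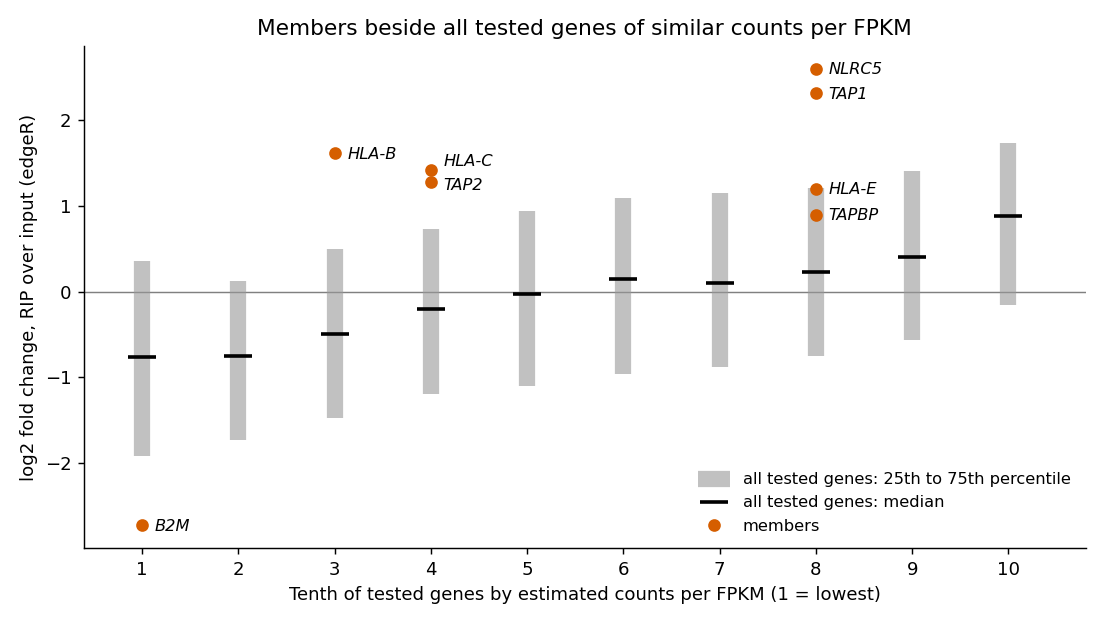
The edgeR log2 fold change, RIP over input (vertical axis), of all tested genes in 10 bins of 1991 genes by estimated counts per FPKM (horizontal axis, lowest at left), as median and quartiles, with the members as points. Medians go from -0.76 in the first bin to 0.88 in the last, and B2M lies in the first bin while NLRC5, TAP1, HLA-E, and TAPBP lie in the eighth.

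Other genes of the pathway were read from 6 lists of 55 genes, 51 of which were tested. Of these, 9 were higher in the RIP libraries, 4 were lower, and 38 did not pass the threshold, against the 26.5% and 24.9% of all genes. Their median log2 fold change was 0.16.

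Among 11 class I and class I-like genes, 2 were higher and none was lower, with a median of 0.16. FCGRT, the heavy chain of the neonatal Fc receptor and also a partner of β2-microglobulin, had a log2 fold change of 1.36 (SE 0.23, edgeR adjusted p = 0.000656). HLA-G was higher by 1.86 (SE 0.57, adjusted p = 0.0197), at 0.141 to 2.37 FPKM in all 8 libraries, and may share fragments with other class I genes. HLA-G did not pass without the HCT116 pair (adjusted p = 0.0712) or without the DU145 pair (0.0817).

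The ligands of the activating receptor NKG2D did not pass the threshold. Their log2 fold changes were 0.40 for MICA, 0.16 for MICB, -0.58 for ULBP1, -0.03 for ULBP2, and -0.34 for ULBP3, with adjusted p from 0.105 to 0.966 in edgeR. MICA passed in DESeq2 (adjusted p = 0.0173) and in limma on log2(FPKM + 1) (adjusted p = 0.0386). ULBP1 passed in edgeR without the Hep3B pair, at -1.06 (adjusted p = 0.0205). HLA-F, which is mostly intracellular, had 0.41 (adjusted p = 0.307). The iron regulator HFE had -0.37 (adjusted p = 0.238) and passed with library totals alone, at -0.72 (edgeR adjusted p = 0.0388), and MR1, which presents vitamin B metabolites, 0.16 (adjusted p = 0.655).

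Of the 8 genes of peptide loading and trimming, 1 was higher, HSPA5, a chaperone of the endoplasmic reticulum, with a log2 fold change of 0.76 (SE 0.23, edgeR adjusted p = 0.0171). It did not pass without the Hep3B pair (adjusted p = 0.0521), without the HCT116 pair (0.0901), or with library totals alone, where it was 0.41 (adjusted p = 0.162). The median of the list was 0.15.

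No gene of the immunoproteasome, which cuts peptides for class I, was called by edgeR with TMM or by DESeq2, and 0 of the 5 had an unadjusted p under 0.05 in edgeR. With library totals alone in place of TMM factors, PSME1 passed, at -0.64 (edgeR adjusted p = 0.0257). PSMB8 had a log2 fold change of 0.33 (adjusted p = 0.732) and PSMB9 of -0.62 (adjusted p = 0.382). PSMB10 had -0.52 (adjusted p = 0.253), and the activator subunits PSME1 and PSME2 had -0.29 and 0.06 (adjusted p = 0.263 and 0.797). PSMB8 and PSMB9 lie beside TAP1. PSMB9 stood at 13.1 FPKM in the HCT116 input and 12.9 in its RIP library, where TAP1 went from 12.7 to 49.0 FPKM. In Hep3B and SW1990, PSMB8 was listed at 0 in both libraries. The 3 catalytic subunits that the immunoproteasome replaces had 0 calls by edgeR or DESeq2 and 1 unadjusted p under 0.05, that of PSMB6.

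Of 18 genes of interferon signalling and class I control, 6 were higher and 4 lower, with a median of 0.40. These counts are near the shares of all genes, 26.5% higher and 24.9% lower. NFKB1, a subunit of NF-κB, was higher by 1.86 (SE 0.23, edgeR adjusted p = 9.09e-05) and the interferon signal transducer STAT2 by 1.26 (SE 0.22, adjusted p = 0.000727). The interferon receptor gene IFNGR2 was lower, at -0.82 (SE 0.18, edgeR adjusted p = 0.00292). CREB1, which binds TGACG, was lower, at -1.97 (SE 0.19, adjusted p = 2.08e-05), as was RFXAP, at -1.96 (SE 0.47, adjusted p = 0.00569). Of the subunits of RFX, which binds class I and class II promoters, RFX5 was thus apart from RFXAP, with 0.57 (SE 0.19, adjusted p = 0.0252). Its call was lost under 7 of the 14 alternatives. The NF-Y subunits NFYA, NFYB, and NFYC were at 0.05, -1.43, and 0.47. NFYB passed the threshold (adjusted p = 0.000271) and so did NFYC (adjusted p = 0.0444), whose call was lost under 9 of the alternatives. Of the class II genes, 6 of 10 had enough counts to be tested, and none was called by edgeR or DESeq2 or had an unadjusted p under 0.05. CIITA, the class II counterpart of NLRC5, stood at 0.144 to 0.505 FPKM in the inputs.

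**Figure D4:**
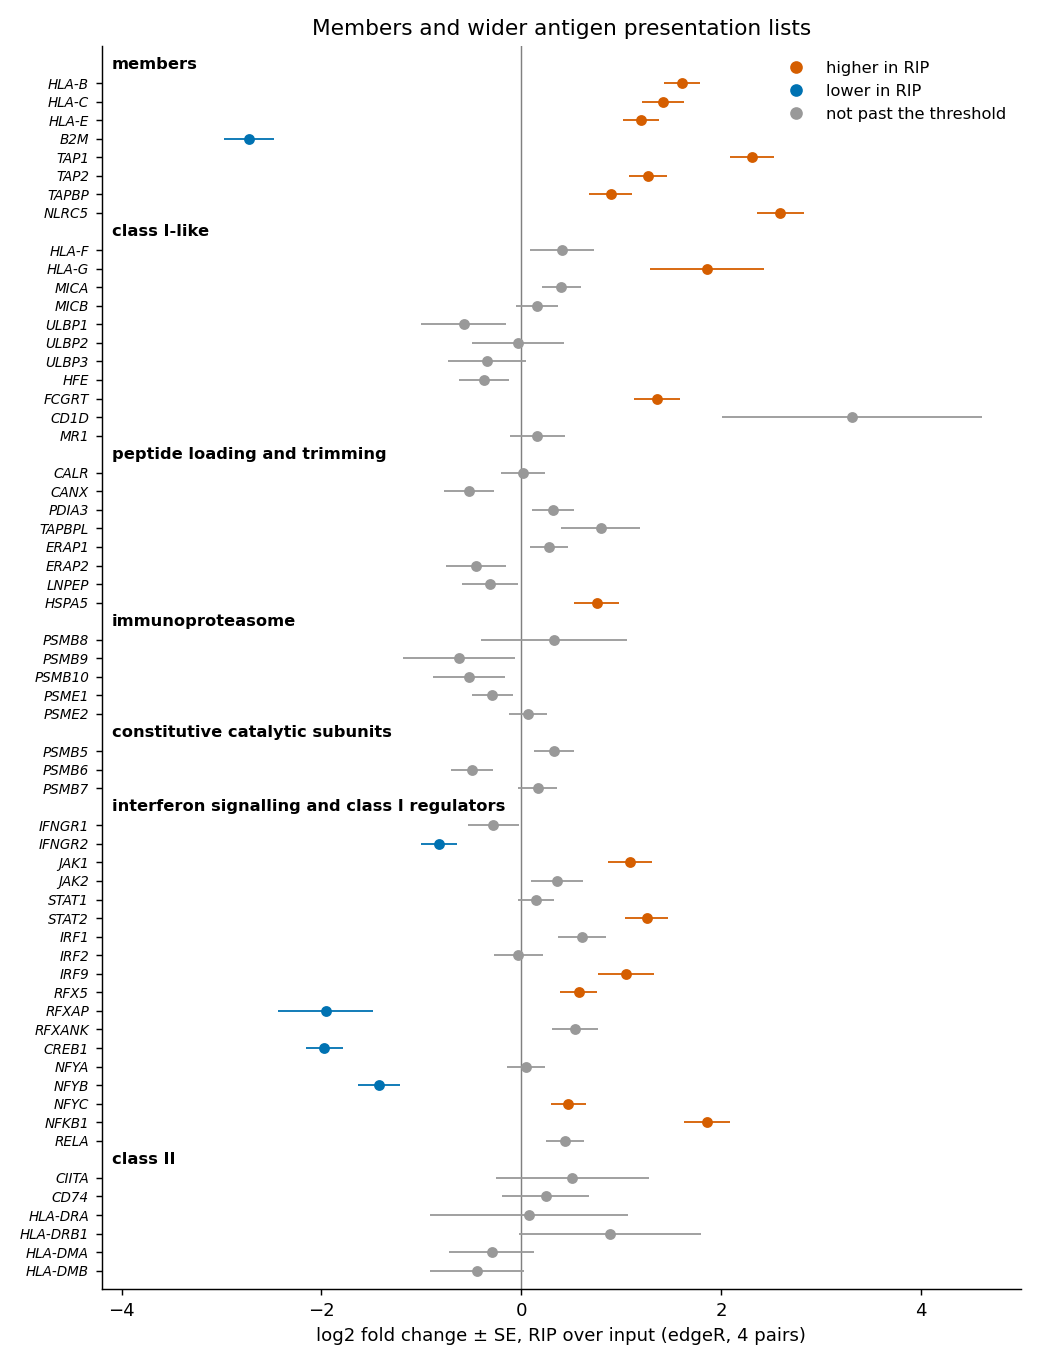
The edgeR log2 fold change, RIP over input, with its SE (horizontal axis) for the 8 members and for the tested genes of 6 wider lists (1 row per gene), coloured by call. The 7 higher members lie between 0.89 and 2.60 and B2M at -2.73, while 38 of the 51 other genes, the immunoproteasome genes among them, did not pass the threshold.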

How the data were processed

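RNA from RPS6 RIP and from input was sequenced in 4 cell lines, 8 libraries in all, from a stranded total RNA kit. Per the labels and the paper, the authors aligned reads to hg19 with TopHat (TopHat2 2.0.9 and CASAVA 1.8 in the submitters' processing notes). The tool that counted fragments, its annotation and its use of strand are not given in the sources used here. The authors deposited a level per gene in FPKM, which corrects for length and depth. Beside it they deposited estimated counts, scaled by 1 factor per library and split between overlapping genes. Further deposited files hold fold changes, p-values and q-values of the authors' own comparisons, which were not used.

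The design assumed raw counts, but the values were scaled estimates, so they were rounded. They were tested with edgeR 4.0.16 (quasi-likelihood, TMM, R 4.3.3) with the cell line as a block, for 19910 genes whose mean reached 10 counts, with Benjamini-Hochberg adjustment over all of them and a threshold of 0.05. The fit was tested on simulated data. Each line gave both libraries, and deviations from group means correlated at 0.839 to 0.886 within lines and at -0.469 to -0.0448 between lines, so the line pairs the libraries. Fragments were recovered from the step between counts (91.3% to 93.3% of values whole within 0.01) and gave depth and 95% Wilson intervals. With 1 library per line, depth sets the precision of a level and the 4 pairs that of a difference.

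The members and lists were chosen with earlier results of these data known. A few listed genes are not reported here and were left out of the lists. Of the lists, genes past the threshold were named, up to 4 by size, and all class I-like and immunoproteasome genes with a mean of at least 1 FPKM. STAT2, IFNGR2, NFYA, NFYC, RFX5, PSMB6, CIITA and the genes of the sensitivity checks were named after their values were seen. Alternatives were DESeq2 1.42.0, limma 3.58.1 on log2(FPKM + 1) and log2(FPKM + 0.1), other scalings, other minimums, recovered fragments, summed rows of one name, no block, and each pair left out. Python 3.11.15 with pandas 2.3.3 and SciPy 1.17.1 was used for the rest. Promoters were taken from RefSeq (GRCh38.p14) and searched on both strands.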

Additional observations from a re-analysis of the deposited data

Results flagged for a closer look

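In 24 groups of 4 values, the 8 members' levels in the inputs, levels in the RIP libraries, and log2 ratios, 2 values stood far from the other lines. Chance flags about 1 group in 20, so 2 of 24 is close to that rate. The groups are not independent, as the ratios are built from the same levels. The log2 ratio of HLA-B, RIP over input as FPKM + 1, was 1.26 in SW1990 and at least 1.47 in the other lines. The plain FPKM ratio in SW1990 was 2.79, the same as in DU145, so this gap came with the pseudocount on a low input of 3.55 FPKM. The level of HLA-C in the Hep3B input was 3.73 as log2(FPKM + 1), below the other inputs. A second row named TAP2 (ENSG00000250264), left out of the values above, held 672 fragments over the RIP libraries and 286 over the inputs. In the order Hep3B, HCT116, DU145, and SW1990, it held 121, 184, 367, and 0 fragments in RIP and 14, 41, 214, and 17 in the inputs.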

How the results depend on the processing

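The 8 members kept their direction under all 14 alternatives to the fit. In the 13 with the cell line as a block, 7 kept their calls in all and TAPBP in 12. Without the replicate block, edgeR called 0 members higher and 0 lower (adjusted p from 0.127 to 0.635, with an unadjusted p under 0.05 for 2 of the 8, B2M and HLA-E), with 2 higher and 1 lower in the wider lists and 1427 higher and 1345 lower over all genes. Without the block the spread between lines enters the error. With library totals alone, the wider lists had 5 higher and 9 lower, and the calls over all genes became 3889 higher and 6382 lower against 5282 and 4963. That scaling shifted the median of all genes by -0.35, upper-quartile scaling by -0.12, no minimum on counts by -0.55, and limma by 0.13 to 0.15. On the recovered fragments, edgeR called 5296 genes higher and 5076 lower. Leaving out each pair gave 5 to 7 higher and 4 to 7 lower in the wider lists, with 5 higher without DU145 and 7 lower without SW1990, and 7 and 1 members throughout. The calls over all genes then ran from 4450 to 4806 higher and from 4089 to 5087 lower.

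Genes near 0 changed sign, none past the threshold. With library totals alone MICB was -0.19, MR1 -0.19, PSMB8 -0.067, and PSME2 -0.28. PSME2 was -0.056 with upper-quartile scaling. Without the block ULBP2 was 0.061 and PSMB8 -0.11, and in limma ULBP2 was 0.11 and 0.056 with pseudocounts of 1 and 0.1. Leaving out each pair gave -0.26 to 0.10 for ULBP2, -0.016 to 0.34 for MR1, and -0.11 to 0.16 for PSME2. PSMB8 ran from -0.13 to 0.32, without the Hep3B, HCT116, or SW1990 pair. Without the DU145 pair it had too few counts to be tested. The causes were not tested. By share of fragments, the highest over the lowest input was 9.50-fold for HLA-B, 11.2-fold for HLA-C, 7.15-fold for B2M, and 78.2-fold for NLRC5. Depth limits NLRC5 most, with 5 fragments in the Hep3B input.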
